A study of Mus musculus with 6 samples.

Results

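Described here are 36 mouse genes of DNA replication and mitosis in pancreatic acinar cells, taken as every row of the deposited count files whose symbol was on a given list of 36, out of 55367 genes. The list holds 11 S-phase genes, which are Pcna, Mcm2, Mcm3, Mcm4, Mcm5, Mcm6, Mcm7, Rrm1, Rrm2, Tyms and Gins2. The other 25 are mitosis genes, led by Top2a, Mki67, Cdk1, the B-type and A-type cyclin genes, the Aurora kinase genes, spindle and kinetochore genes and condensin genes.

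A dividing cell first copies its genome in S phase and then separates the copies in mitosis. In S phase the MCM proteins unwind DNA as the replicative helicase together with the GINS complex, PCNA clamps the polymerases to DNA, and ribonucleotide reductase and thymidylate synthase supply nucleotides. In mitosis CDK1 with its cyclins and the Aurora and Polo kinases drive entry, condensin and topoisomerase II compact and untangle the chromosomes, kinesins build the spindle, and the anaphase-promoting complex ends the phase. E2F factors drive many S-phase genes, and the DREAM and MYB-MuvB complexes with FOXM1 act through CHR elements of many mitosis genes. Promoters of mitosis genes often hold CCAAT boxes as well. Acinar cells, which make and release digestive enzymes, are known to divide rarely in the adult pancreas and to divide more after injury.

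The study, whose title concerns the chromatin remodeller SMARCA5 in pancreatic cancer and in tissue repair, profiled the expression of acinar cells. All 6 libraries belonged to 1 group, with treatment given as none and the genotype Pdx1-Cre; Klf5-mCherry-CreERT2. The Pdx1 promoter drives Cre in the pancreatic epithelium, and the genotype label names no GFP reporter although each library came from 300 cells sorted for GFP. RNA was amplified by Smart-seq2 with changes, using 12 PCR cycles, while the labels call the molecule genomic DNA. Age, the number of animals and whether libraries came from separate animals are not given, so p-values measure only the spread between these samples, which may be technical. The deposited library names carry a number that no label explains. Replicates 4, 5 and 6 share the same number and are called set B, and replicates 1, 2 and 3 share another and are called set A. No label makes the sets groups of the study, and they were read as a possible batch.

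Libraries held 4670819 to 7072270 counts. The sets stood apart in their composition. Ribosomal RNA genes took 59.9 to 60.9% of the counts in set B and 38.2 to 46.8% in set A. The enzyme genes of the acinar marker list took 8.00 to 13.5% in set B and 26.2 to 32.6% in set A. All 12 acinar markers had counts over 3 times background in all 6 libraries, so the label of acinar cells was met. Olfactory and vomeronasal receptor genes are known to be silent outside sensory tissue, and the density of counts over 1489 of them served as the background of a library. It was 52.1, 327 and 109 counts per Mb in replicates 4, 5 and 6 of set B, against 26.5, 26.8 and 39.4 in replicates 1, 2 and 3 of set A. Replicate 5 stood apart from all others in this value, and results that rest on it are given with and without it.

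Promoters of the 3 tested mitosis genes and the 3 tested S-phase genes with the largest set differences that had an entry are shown, so that the E2F, CHR and CCAAT letters known for these classes can be looked for in them. Each is the run of 250 bases before a start in RefSeq's annotation of GRCm38.p6, the mm10 build, on the gene's own strand. Capitals mark every match to the searched letters on either strand, with E2F-type sites as TTTGGCGC, TTTCGCGC, TTTCCCGC or TTTGCCGC, the CHR as TTTGAA or TTCGAA, and the CCAAT box as CCAAT. The Cdk1 promoter is chr10:69352913-69353162 (minus strand), Kif20b chr19:34922108-34922357 (plus), Top2a chr11:99024190-99024439 (minus), Rrm1 chr7:102441445-102441694 (plus), Mcm6 chr1:128359706-128359955 (minus) and Rrm2 chr12:24708004-24708253 (plus).
Cdk1: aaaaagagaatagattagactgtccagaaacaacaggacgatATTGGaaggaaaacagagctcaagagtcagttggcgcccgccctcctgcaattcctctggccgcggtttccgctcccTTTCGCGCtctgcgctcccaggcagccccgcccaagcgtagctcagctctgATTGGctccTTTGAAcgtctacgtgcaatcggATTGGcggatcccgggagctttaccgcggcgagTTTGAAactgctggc
Kif20b: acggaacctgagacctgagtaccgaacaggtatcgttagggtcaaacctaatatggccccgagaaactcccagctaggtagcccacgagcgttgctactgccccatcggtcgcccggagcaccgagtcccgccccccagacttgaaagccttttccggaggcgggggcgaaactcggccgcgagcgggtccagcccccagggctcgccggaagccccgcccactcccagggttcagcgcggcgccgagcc
Top2a: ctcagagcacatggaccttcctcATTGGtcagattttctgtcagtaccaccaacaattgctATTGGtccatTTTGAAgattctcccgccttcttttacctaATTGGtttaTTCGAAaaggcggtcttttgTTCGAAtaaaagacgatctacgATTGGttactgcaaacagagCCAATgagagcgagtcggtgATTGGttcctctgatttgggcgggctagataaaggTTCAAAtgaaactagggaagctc
Rrm1: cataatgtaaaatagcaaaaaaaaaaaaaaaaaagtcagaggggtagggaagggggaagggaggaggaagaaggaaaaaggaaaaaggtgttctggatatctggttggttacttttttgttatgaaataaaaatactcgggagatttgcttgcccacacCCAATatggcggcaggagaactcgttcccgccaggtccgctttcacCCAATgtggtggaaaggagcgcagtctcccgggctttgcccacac
Mcm6: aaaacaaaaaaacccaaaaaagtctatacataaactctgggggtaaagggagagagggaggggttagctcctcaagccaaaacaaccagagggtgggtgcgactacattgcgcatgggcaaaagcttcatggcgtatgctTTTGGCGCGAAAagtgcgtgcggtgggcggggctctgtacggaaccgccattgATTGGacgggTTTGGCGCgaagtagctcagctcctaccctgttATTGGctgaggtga
Rrm2: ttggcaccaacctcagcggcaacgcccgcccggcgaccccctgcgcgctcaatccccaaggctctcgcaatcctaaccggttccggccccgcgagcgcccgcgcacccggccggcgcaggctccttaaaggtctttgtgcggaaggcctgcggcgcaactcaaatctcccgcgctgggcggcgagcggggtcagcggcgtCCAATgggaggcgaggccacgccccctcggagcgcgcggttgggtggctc

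The Cdk1 promoter held 1 E2F-type match, 2 CHR matches and 3 CCAAT boxes. The Top2a promoter held 4 CHR matches and 6 CCAAT boxes, of which 5 lie on the opposite strand as ATTGG. In both genes the CHR match nearest the start ended close to it, at 10 bases before the start in Cdk1 and 18 bases before it in Top2a. Kif20b had no match to any of the searched letters in this window. Among the S-phase genes, Mcm6 held 3 E2F-type matches, 2 of which overlap each other on opposite strands, and 2 CCAAT boxes. Rrm1 held 2 CCAAT boxes and Rrm2 held 1, with no match to the other letters. RefSeq entries were matched for 30 of the 36 genes, giving 31 promoters because Mcm7 has 2, and Aurkb, Ccna2, Gins2, Mcm4, Smc4 and Tpx2 had none.

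Over these promoters the CHR letters were in 10 of 21 mitosis promoters (47.6%) and 2 of 10 S-phase promoters, against 17.1% of all 32851 promoters of the same length and 11.8% of those of genes tested between the sets. E2F-type letters were in 3 of 10 S-phase promoters (30.0%) and 2 of 21 mitosis promoters (9.52%), against 1.86% of all promoters. CCAAT boxes were in 17 of 21 mitosis promoters (81.0%) and 9 of 10 S-phase promoters (90.0%), against 33.8% of all. A CHR and a CCAAT box together were in 9 of 21 mitosis promoters (42.9%) and 2 of 10 S-phase promoters, against 6.02% of all. These are counts of letters, and say nothing of whether a factor binds there in acinar cells.

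Counts of both classes were low in every library, and those of the mitosis genes were several times higher in set B. Together the 25 mitosis genes had 376, 375 and 551 counts in replicates 4, 5 and 6 of set B, against 119, 78 and 90 in replicates 1, 2 and 3 of set A. Scaled to effective library sizes by the trimmed mean of M-values (TMM), that was 66.2 ± 12.4 CPM, a count scaled to library size, in set B and 16.1 ± 1.85 in set A (SD, n = 3 each). All set B libraries lay above all set A libraries, by a margin larger than the spread within either set. In these bulk samples, more cells in mitosis and more mitotic RNA per cell cannot be told apart.

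The 11 S-phase genes had 111, 138 and 124 counts in set B, against 79, 55 and 57 in set A. Their summed level was 19.1 ± 2.73 CPM in set B and 10.7 ± 1.22 CPM in set A (SD, n = 3 each). The sets did not overlap here either, with a smaller gap between them. Over pooled counts scaled to TMM library sizes, set B held 4.10 times the level of set A for mitosis genes, with an exact 95% interval of 3.61 to 4.68, and 1.77 times for S-phase genes, with 1.48 to 2.11. These intervals cover counting error only, since PCR copies without molecular identifiers are not independent molecules. Mitosis genes made up 77.2, 73.1 and 81.6% of the counts of the 36 genes in set B, against 60.1, 58.7 and 61.2% in set A.

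Expected background was then set against these sums. For the mitosis genes, whose median span of 30744 bp exceeds the 15307 bp of the S-phase genes, it came to 37.4, 235 and 78.4 counts in set B, against 19.0, 19.2 and 28.3 in set A. Observed counts were 10.1, 1.60 and 7.02 times that in set B, against 6.27, 4.06 and 3.18 times in set A. Replicate 5 was the lowest of all 6, at 1.60 (exact 95% interval 1.43 to 1.78), so most of its mitosis counts were matched by background. With expected background removed, the mitosis genes stood at 52.1, 22.6 and 69.0 CPM in set B, against 15.3, 11.1 and 10.5 CPM in set A. The S-phase genes stood at 15.7, 13.5 and 15.5 CPM in set B, against 11.4, 9.57 and 8.61 CPM in set A. Neither class overlapped between the sets after this step, and replicate 5 was the set B library nearest to set A in both. On these values the set means were 3.89 times higher in set B for mitosis genes and 1.51 times for S-phase genes. Scaled to counts outside ribosomal RNA the ratios were 6.20 and 2.54, but on that scale the median of all 8723 tested genes was itself higher in set B by 0.62 log2 units, against -0.03 under TMM.

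**Figure D1:**
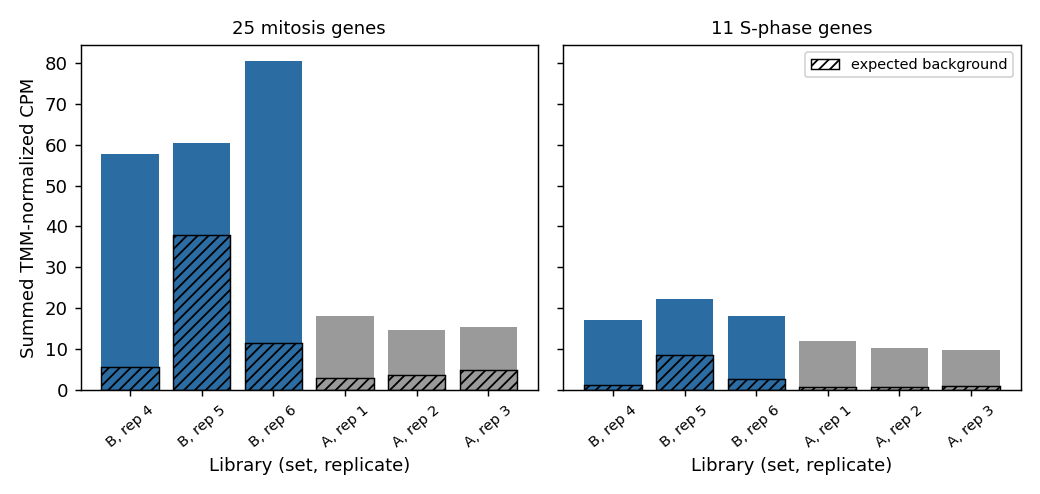
Summed TMM-normalized CPM of the 25 mitosis genes (left) and 11 S-phase genes (right) in each library, set B in blue and set A in grey, with the expected background hatched inside each bar. The mitosis bars of set B reach 57.8 to 80.4 CPM and those of set A 14.8 to 18.2, and the hatched share is widest in replicate 5.

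Gene by gene, all 3 set B libraries exceeded all 3 set A libraries in TMM-normalized CPM for 19 of 25 mitosis genes and 3 of 11 S-phase genes, against 12.3% of all genes with a count. Among protein-coding genes of similar depth, with 10 to 300 counts in all, the share was 17.6%. After background was removed the counts were 12 of 25 mitosis genes and 2 of 11 S-phase genes, against 3.02% of genes with a count and 4.35% at similar depth. Leaving out replicate 5, they were 20 of 25 and 4 of 11, against 8.36% and 10.9%.

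**Figure D2:**
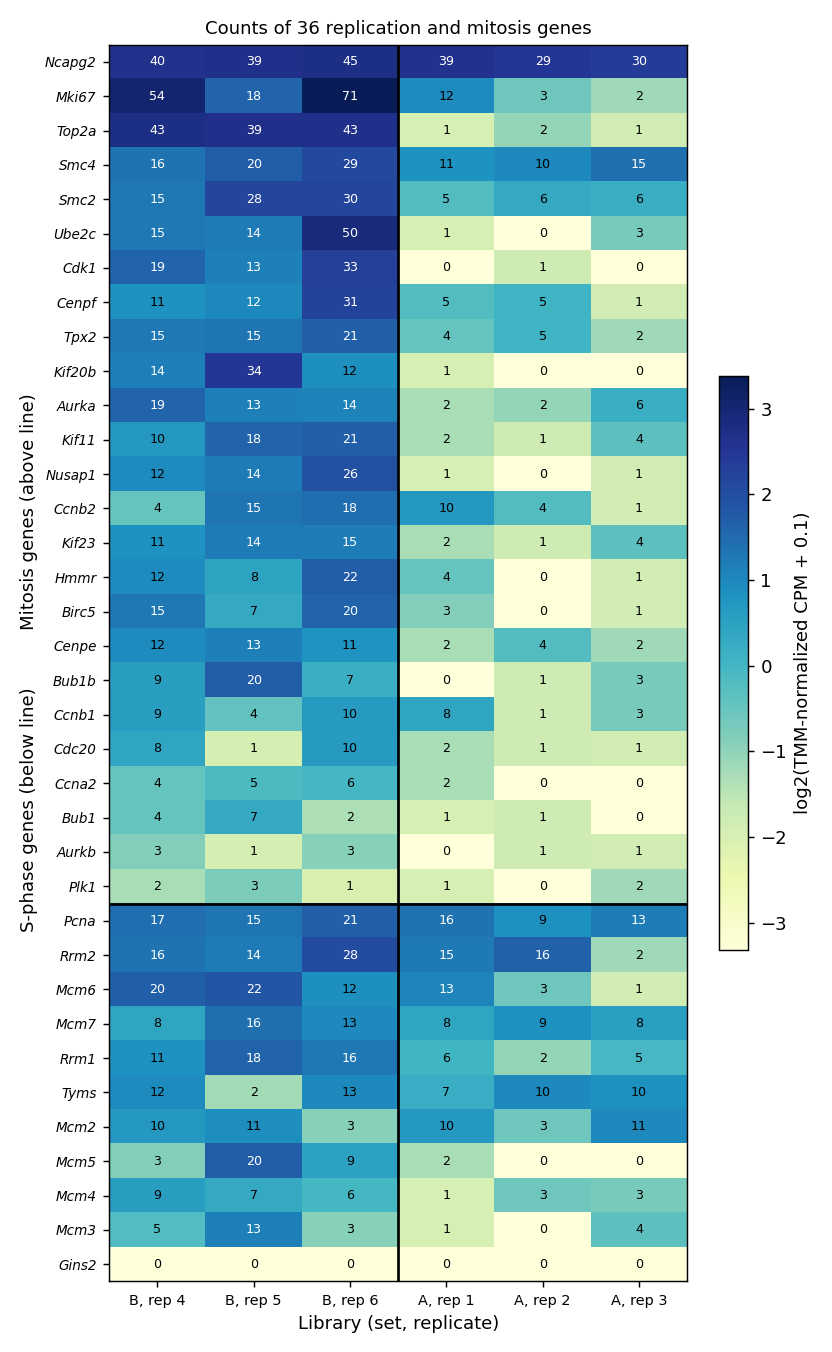
Counts of the 36 genes in each library, set B on the left and set A on the right, with the printed number as the raw count and the colour as log2 of TMM-normalized CPM plus 0.1. Top2a has 39 to 43 counts in set B and 1 to 2 in set A, whereas Ncapg2 and Pcna have similar counts in both.

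The helicase and clamp genes had their highest levels in Pcna, whose product slides along DNA with the polymerases. Pcna had 17, 15 and 21 counts in set B, against 16, 9 and 13 in set A, and its sets overlapped. Mcm7, a helicase subunit, had 8, 16 and 13 counts in set B, against 8, 9 and 8 in set A, with 14.8% of its exon bases inside neighbouring gene spans. Mcm6, another subunit, had 20, 22 and 12 counts in set B, against 13, 3 and 1 in set A. The sets of both overlapped, for Mcm6 through replicate 1, the highest of set A. Fitted differences, set B over set A, were 0.35 log2 units for Pcna (SE 0.37), 0.43 for Mcm7 (SE 0.46) and 1.56 for Mcm6 (SE 0.68). None of the 3 passed, with edgeR's Benjamini-Hochberg adjusted p at 0.59, 0.60 and 0.18.

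The other helicase subunits were too low to pass the filter on low counts. Mcm2 had 10, 11 and 3 counts in set B, against 10, 3 and 11 in set A, with no order between the sets. Mcm3 had 5, 13 and 3 counts in set B, against 1, 0 and 4 in set A, replicate 5 being far above the rest. Mcm4 had 9, 7 and 6 counts in set B, against 1, 3 and 3 in set A. Mcm5 had 3, 20 and 9 counts in set B, against 2, 0 and 0 in set A. Both had all set B libraries highest in CPM, but after background was removed only Mcm5 kept that order. Its pooled ratio of 14.5 has an interval of 3.69 to 124 because set A held 2 counts. Gins2, which encodes a GINS subunit, had 0 counts in all 6 libraries. Its whole span lies inside the spans of Galnt2l and Gse1 on the other strand, so no absence is read from it.

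Among the nucleotide supply genes, Rrm1, the large subunit of ribonucleotide reductase, had 11, 18 and 16 counts in set B, against 6, 2 and 5 in set A. Its sets did not overlap, also after background was removed. Rrm2, the small subunit, had 16, 14 and 28 counts in set B, against 15, 16 and 2 in set A, where replicate 3 was far below the others. Tyms, thymidylate synthase, had 12, 2 and 13 counts in set B, against 7, 10 and 10 in set A, and replicate 5 was the lowest of all. The fitted difference of Rrm1 was 1.65 log2 units (SE 0.51, edgeR adjusted p = 0.097), that of Rrm2 0.65 (SE 0.62, edgeR adjusted p = 0.54) and that of Tyms -0.16 (SE 0.62, edgeR adjusted p = 0.89). The direction of Tyms is not settled, since without replicate 5 it was 0.26. Pooled over the role, nucleotide supply genes had 130 counts in set B and 73 in set A, a ratio of 1.61 (1.2 to 2.17), and helicase and clamp genes had 243 in set B and 118 in set A, a ratio of 1.86 (1.49 to 2.34). Both ratios leave background in. It was expected to give 24.1 nucleotide supply counts and 56.55 helicase and clamp counts in set B, against 4.58 and 10.7 in set A.

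The cyclins and mitotic kinases start the phase, and Cdk1 is the kinase that drives entry. Cdk1 had 19, 13 and 33 counts in set B, against 0, 1 and 0 in set A. The sets were far apart, and set A as a whole held 1 count where background predicts 1.65. The fitted difference was 5.43 log2 units (SE 0.85, edgeR adjusted p = 0.087), and the pooled ratio of 58.7 has a counting interval of 10.2 to 2356. Ccna2, the cyclin A gene of S phase and G2, had 4, 5 and 6 counts in set B, against 2, 0 and 0 in set A, with 21.1% of its exon bases inside Exosc9. Aurka, the centrosomal Aurora kinase, had 19, 13 and 14 counts in set B, against 2, 2 and 6 in set A. Both had all set B libraries above set A, and Aurka differed by 2.03 log2 units (SE 0.56, edgeR adjusted p = 0.090).

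The remaining genes of this role overlapped between the sets. Ccnb1, a partner of CDK1, had 9, 4 and 10 counts in set B, against 8, 1 and 3 in set A. Ccnb2, the other B-type cyclin gene on the list, had 4, 15 and 18 counts in set B, against 10, 4 and 1 in set A. In both, replicate 1 of set A reached into the range of set B. Aurkb, the kinase of the chromosomal passenger complex, had 3, 1 and 3 counts in set B, against 0, 1 and 1 in set A. Plk1, the Polo kinase, had 2, 3 and 1 counts in set B, against 1, 0 and 2 in set A. Neither of these 2 kinase genes was detectably above background in pooled set B, where Plk1 stood at 1.18 times background (0.43 to 2.56). Without replicate 5, Aurkb was, with 6 counts where background predicts 0.97 (2.26 to 13.5 times background). Over the role, set B held 199 counts and set A 45, a ratio of 4.0 (2.88 to 5.65). Background was expected to give 37.9 of these in set B and 7.2 in set A.

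Genes of the checkpoint, the anaphase-promoting complex and the chromosomal passenger complex had the largest pooled ratio of the 6 roles, with 189 counts in set B and 18 in set A, or 9.49 times (5.84 to 16.4). Background was expected to give 45.9 of these in set B and 8.71 in set A. Ube2c, the ubiquitin-conjugating enzyme of the anaphase-promoting complex, had 15, 14 and 50 counts in set B, against 1, 0 and 3 in set A. Replicate 6 was high even for set B, and 62.8% of the exon bases of Ube2c lie inside the span of Tnnc2 on the other strand. Birc5, the passenger protein survivin, had 15, 7 and 20 counts in set B, against 3, 0 and 1 in set A. Cdc20, an activator of the complex, had 8, 1 and 10 counts in set B, against 2, 1 and 1 in set A, with replicate 5 at the level of set A. The checkpoint kinase gene Bub1 had 4, 7 and 2 counts in set B, against 1, 1 and 0 in set A, and its pooled set B counts did not exceed background (0.87 times, 0.46 to 1.48). Bub1b, which encodes BubR1, had 9, 20 and 7 counts in set B, against 0, 1 and 3 in set A, at 1.70 times background in set B (1.19 to 2.35). Ube2c differed by 4.03 log2 units (SE 0.84, edgeR adjusted p = 0.087), and Birc5, Cdc20, Bub1 and Bub1b did not pass the filter on low counts.

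All 8 spindle and kinetochore genes had every set B library above every set A library in CPM, against 12.3% of all genes with a count. They had 384 counts in set B and 52 in set A (ratio 6.67, 4.99 to 9.10). Background was expected to give 171 of these in set B and 32.5 in set A. After background was removed, Kif20b, Nusap1, Kif23 and Kif11 kept the order of the sets, against 3.02% of genes with a count. Hmmr, Tpx2, Cenpf and Cenpe did not keep it. Kif20b, a kinesin of cytokinesis, had 14, 34 and 12 counts in set B, against 1, 0 and 0 in set A. Nusap1, a spindle microtubule bundler, had 12, 14 and 26 counts in set B, against 1, 0 and 1 in set A. Hmmr, a spindle-associated protein also known as a hyaluronan receptor, had 12, 8 and 22 counts in set B, against 4, 0 and 1 in set A. Set A of the first 2 was at background, at 0.20 times (0.0051 to 1.13) for Kif20b and 0.66 times (0.079 to 2.37) for Nusap1. Kif20b differed by 5.38 log2 units (SE 0.95) and Nusap1 by 4.34 (SE 0.74), both at an edgeR adjusted p of 0.087. These fits took counts with background left in. In set B background was expected to give 26.1 of 60 counts for Kif20b and 16.1 of 52 for Nusap1. Kif20b stood at 5.03, 1.95 and 2.06 times background in replicates 4, 5 and 6. Kif20b lay within error of Cdk1 and was the higher of both without replicate 4 (5.46, against 5.42 for Cdk1) or replicate 6 (5.69, against 5.05). Hmmr differed by 2.86 (SE 0.80, edgeR adjusted p = 0.091).

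Kif23, a kinesin of the central spindle, had 11, 14 and 15 counts in set B, against 2, 1 and 4 in set A. Kif11, the kinesin that pushes the spindle poles apart, had 10, 18 and 21 counts in set B, against 2, 1 and 4 in set A. Tpx2, which activates Aurora A on the spindle, had 15, 15 and 21 counts in set B, against 4, 5 and 2 in set A. All 3 were clear of set A before background was removed, and Kif23 and Kif11 also after it. Cenpf, a large kinetochore protein, had 11, 12 and 31 counts in set B, against 5, 5 and 1 in set A. Cenpe, the kinetochore kinesin, had 12, 13 and 11 counts in set B, against 2, 4 and 2 in set A. Both span long genes, and in replicate 5 their counts fell short of expected background, at 0.77 times for Cenpf and 0.65 times for Cenpe. Fitted differences of Kif23, Tpx2, Cenpf and Cenpe were between 1.98 and 2.33 log2 units, and none had an edgeR adjusted p under 0.05.

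In the role of chromosome structure and the chromosome surface, 1 gene passed the test over all genes. Top2a, the topoisomerase that untangles sister chromosomes (chromosome 11, 98992943 to 99024189), had 43, 39 and 43 counts in set B, against 1, 2 and 1 in set A. Every set B library was at nearly the same count before background was removed, and the pooled ratio was 28.2 (10.8 to 105). Expected background was 1.63, 10.2 and 3.42 counts in replicates 4, 5 and 6, which put them at 26.4, 3.82 and 12.6 times background. In set A it was 2.9 of 4 counts. The sets of Top2a did not overlap after background was removed. Top2a rose by 4.71 log2 units (SE 0.47, n = 3 and 3, edgeR's quasi-likelihood test with Benjamini-Hochberg adjusted p = 0.022). It was the single gene of 8723 that passed. Mki67, which coats mitotic chromosomes and marks cycling cells, had 54, 18 and 71 counts in set B, against 12, 3 and 2 in set A. Its sets did not overlap, but after background was removed replicate 5 fell into the range of set A. Mki67 differed by 2.92 log2 units (SE 0.65, edgeR adjusted p = 0.087).

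The condensin genes of the list cover a range of set differences. Smc2, a core subunit of both condensins, had 15, 28 and 30 counts in set B, against 5, 6 and 6 in set A. Smc4, its partner in the same complexes, had 16, 20 and 29 counts in set B, against 11, 10 and 15 in set A. Ncapg2, a subunit of condensin II alone, had 40, 39 and 45 counts in set B, against 39, 29 and 30 in set A. Smc2 was clear of set A in all set B libraries, Smc4 overlapped, and Ncapg2 did not overlap in CPM but differed little. Fitted differences were 1.94 log2 units for Smc2 (SE 0.45, edgeR adjusted p = 0.087), 0.71 for Smc4 (SE 0.40, edgeR adjusted p = 0.29) and 0.21 for Ncapg2 (SE 0.28, edgeR adjusted p = 0.67). The differences between these genes were not tested. Ncapg2 alone gave 98 of the 287 mitosis counts of set A, and without it the pooled ratio of the mitosis genes was 5.63 (4.83 to 6.60). Over the role of chromosome structure and surface, set B held 530 counts and set A 172, a ratio of 2.79 (2.34 to 3.33). Background was expected to give 95.3 of these in set B and 18.1 in set A.

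**Figure D3:**
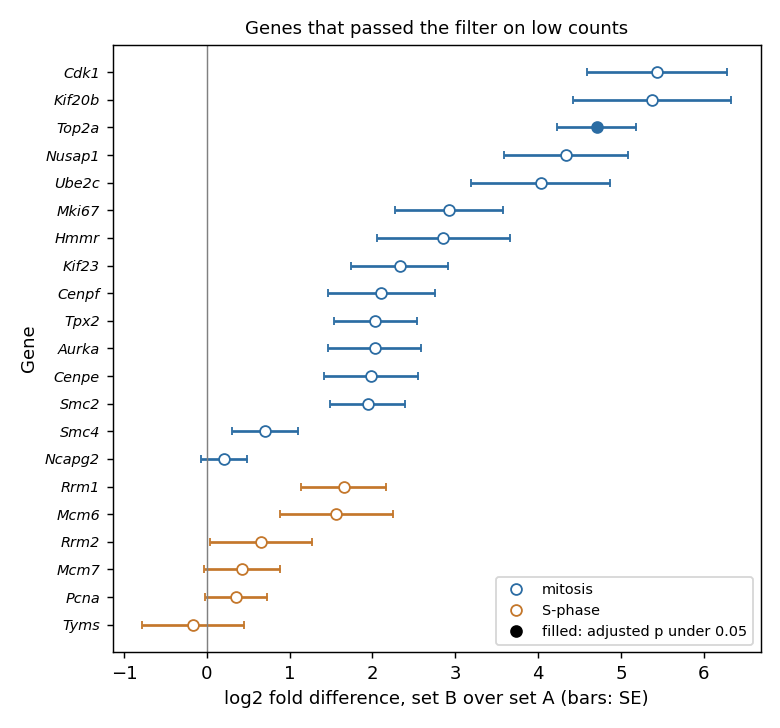
Fitted log2 differences, set B over set A, of the 21 genes that passed the filter on low counts, with bars as standard errors, mitosis genes in blue and S-phase genes in orange, and the filled point as the gene with an adjusted p under 0.05. Cdk1, Kif20b and Top2a lie at 5.43, 5.38 and 4.71, and Tyms is the lowest at -0.16.

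Of the 36 genes, 21 passed the filter and were tested, 15 mitosis and 6 S-phase genes. A gene could pass through set B alone, so the share of these 21 that differed is not read as a result. Among them 1 was called higher, Top2a, against 0.0115% of all genes tested (0.0118% and 0.0117% where ribosomal RNA genes, without or with enzyme genes, were left out), and 0 were called lower, with 0 of 8723 genes lower. At an unadjusted p under 0.05 the same test had 1407 genes higher (16.1%) and 851 lower (9.76%), and among the listed genes 13 mitosis and 2 S-phase genes, all higher. DESeq2's Wald test called 5 mitosis genes higher, Top2a, Mki67, Cdk1, Ube2c and Kif20b, and 0 S-phase genes, against 5.81% of its genes higher and 2.44% lower. Without a filter on low counts, edgeR called those 5 and Nusap1 among 25 mitosis genes, and 0 of 10 S-phase genes, against 2.65% higher. In that fit the median difference was 2.02 log2 units over the 25 mitosis genes, 24 of them positive, and 0.78 over the 10 S-phase genes with a count, 8 of them positive. The median of all 29779 genes in it was 0.77, with 64.1% positive, so the S-phase median was close to that of all genes.

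The calls turned on single libraries. The call of Top2a was lost without replicate 1, 2, 3 or 6, at edgeR adjusted p of 0.30, 0.21, 0.18 and 0.12, while its difference stayed between 4.39 and 5.05 log2 units over all 6 omissions. In each of those 4 fits 0 of all genes were called. Without replicate 5, 12 mitosis genes were called higher, against 4.04% of genes higher and 4.07% lower. Without replicate 4 they were also 12, against 16.9% higher and 5.72% lower. In both fits edgeR called 0 S-phase genes, with 1 in each at an unadjusted p under 0.05.

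Each gene was also set against 3 times its expected background. The S-phase genes Pcna, Mcm7 and Rrm2 exceeded it in all 6 libraries, against 0 of 25 mitosis genes and 12.4% of protein-coding genes. The mitosis count moved with replicate 5. In the other 5 libraries 4 S-phase genes, with Tyms added, and 6 mitosis genes, Ccnb1, Aurka, Cdc20, Smc2, Smc4 and Ncapg2, exceeded it, against 31.8% of protein-coding genes. In all 3 set B libraries 4 of 11 S-phase and 4 of 25 mitosis genes did, against 12.7% of protein-coding genes. In replicates 4 and 6 alone the counts were 8 of 11 and 20 of 25, against 34.4%. In all 3 set A libraries 5 of 11 S-phase and 6 of 25 mitosis genes did, against 39.4%. Pcna reached 26.1 times background in pooled set B (19.6 to 34.2), against 98.8 times in set A (69.5 to 136). Rrm2 reached 20.1 times (15.3 to 26.0) in set B, against 60.3 times (41.3 to 85.2) in set A. The highest mitosis genes were Ube2c in set B, at 18.1 times (14.3 to 22.6), and Ncapg2 in set A, at 18.1 times (14.6 to 22.3). Because background itself was higher in set B, a lower multiple there does not mean a lower level.

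In pooled set A, the exact interval lay above background for 9 of 11 S-phase genes, all but Mcm5 and Gins2, and for 12 of 25 mitosis genes. For the other 13 mitosis genes, which are Top2a, Cdk1, Ccna2, Aurkb, Plk1, Bub1, Bub1b, Cenpe, Nusap1, Hmmr, Kif23, Kif20b and Kif11, the interval of set A reached background, so RNA above background was not detectable there at this depth. In pooled set B it lay above background for 10 of 11 S-phase and 21 of 25 mitosis genes, the 4 others being Aurkb, Bub1, Plk1 and Cenpe. Without replicate 5 it did for 10 of 11 and 23 of 25, the others among the mitosis genes being Bub1 and Plk1. Cenpe then had 23 counts where background predicts 9.86, a ratio of 2.33. No share over all genes is given for these interval counts, so they are not read as particular to the listed genes. Counts of 3 correspond to 0.438 to 0.568 normalized CPM in these libraries, which limits what could be seen.

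**Figure D4:**
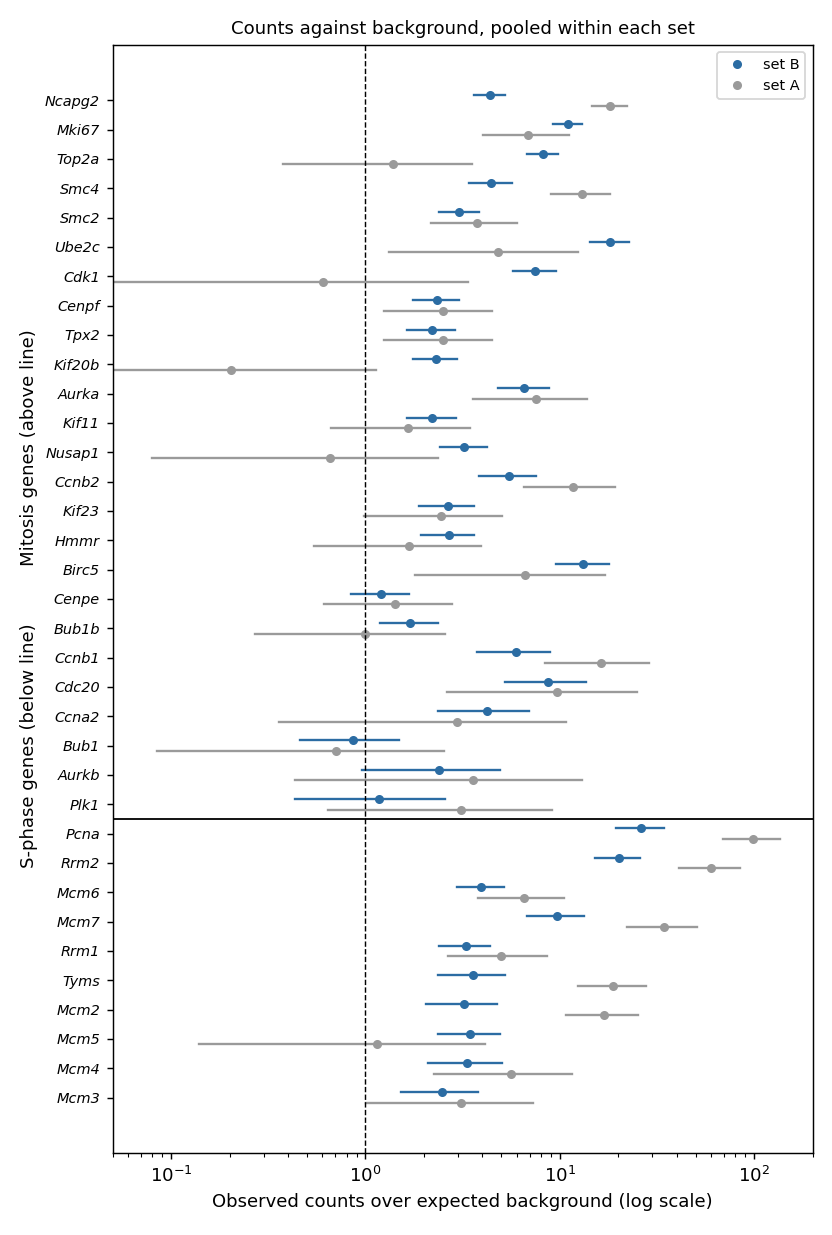
Observed counts over expected background for each gene, pooled over the 3 libraries of set B (blue) and of set A (grey), on a log axis with exact 95% intervals for counting error and a dashed line at background. Pcna, Rrm2 and Mcm7 lie far right of the line in both sets, while Cdk1 and Kif20b lie right of it in set B and at or left of it in set A; Gins2 has no counts and is not drawn.

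Per exon length, as TPM, a count scaled to length and to all genes, all 36 genes were low, with means over 6 libraries of 0 to 1.70. At a mean of 1 TPM or more were the S-phase genes Pcna, at 1.70 ± 0.56, and Rrm2, at 1.49 ± 0.81, and the mitosis genes Ccnb2, at 1.62 ± 1.47, Ube2c, at 1.47 ± 1.86, Aurka, at 1.05 ± 0.84, and Ncapg2, at 1.01 ± 0.31 (SD, n = 6). These spreads exceed the gaps between neighbours, so the order among the 6 is not resolved. The median gene stood at 0.96 TPM in set B and 0.078 TPM in set A among mitosis genes. Among S-phase genes it stood at 0.64 TPM in set B and 0.27 TPM in set A. Within each library, the mean log2(TPM + 1) of mitosis genes less that of S-phase genes was 0.10, -0.01 and 0.29 in set B, against -0.19, -0.21 and -0.14 in set A. The 2 classes were thus close in level over all libraries, at -0.03 ± 0.19 (SD, n = 6), with every set B library above every set A library. Since counts cover introns, TPM is overstated where unspliced RNA or DNA was sequenced.

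Other genes of the same pathways, from lists written down with earlier results of these data known, gave the following. The list of 30 other mitosis genes had 235, 320 and 349 counts in set B, against 67, 57 and 83 in set A. Of these, 409 of the 904 counts of set B were expected from background, against 77.6 of the 207 of set A. All set B libraries exceeded all set A libraries for 20 of the 30, against the 12.3% of genes given above. After background was removed they did for 8 of the 30, against 3.02%, and without replicate 5 for 20, against 8.36%. By edgeR 0 of its 4 tested genes were called, 2 having an unadjusted p under 0.05, DESeq2 called 0, and edgeR without the filter called 2 of 29 higher. Its highest genes were the CDK subunits Cks2, at 5.61 ± 1.14 TPM in set B and 2.80 ± 0.39 TPM in set A, and Cks1b, at 3.51 ± 1.61 TPM in set B and 2.21 ± 0.70 TPM in set A (SD, n = 3 each). Neither passed, at edgeR adjusted p of 0.41 and 0.74. Prc1, a spindle midzone gene, had 0 counts and lies wholly inside other gene spans.

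The lists of replication genes hold fork enzymes and licensing factors. The 24 replication fork enzymes had 350, 520 and 408 counts in set B, against 236, 163 and 216 in set A, but 540 of the 1278 counts of set B were expected from background, against 102 of 615 in set A. Their highest genes were Pold2, a polymerase delta subunit, at 2.05 ± 0.21 TPM in set B and 1.45 ± 0.25 in set A, and Prim2, a primase subunit, at 2.91 ± 2.93 TPM in set B and 0.53 ± 0.30 in set A (SD, n = 3 each). These levels leave background in. Prim2 had 152 counts in set B, 94 of them in replicate 5, where background predicts 105.5 for the set. Over both sets, 66.1% of the Prim2 counts were expected from background, so its rank and set difference are not read as a result. The 16 origin licensing and firing genes had 129, 164 and 143 counts in set B, against 140, 113 and 114 in set A, and overlapped with background left in. Background was expected to give 206.5 of their 436 counts in set B and 39.2 of their 367 in set A, a larger share in set B. The licensing genes were led by Gins4, at 2.17 ± 0.67 TPM in set B and 1.75 ± 0.38 in set A, and Orc3, at 1.39 ± 0.28 TPM in set B and 1.12 ± 0.10 in set A (SD, n = 3 each). By edgeR 0 genes of either list were called; at an unadjusted p under 0.05 the fork list had 2 higher and the licensing list 1 lower, and without the filter 2 fork genes were called higher. DESeq2 called 1 fork gene higher, Pola1 of the primase-polymerase complex, and 0 licensing genes. That call took counts with background left in. Pola1 had 196 counts in set B, 115 of them in replicate 5, where background predicts 160 for the set. In set A it had 46, where background predicts 30.3. Cdt1, Fen1 and Tk1 had 0 counts, but 100%, 86.5% and 100% of their exon bases are shared with other gene spans, and these zeros do not show absence.

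Other properties of the libraries moved with the sets. The 12 acinar markers summed to 60270 to 141400 normalized CPM in set B and 284000 to 351700 in set A. By edgeR 9 of them were lower in set B at an unadjusted p under 0.05, against 9.76% of genes tested. None passed after adjustment, with 0 called. The endocrine list, 10 of 12 genes with counts and Iapp and Neurod1 at 0, reached 660, 18.9 and 1380 CPM in replicates 4, 5 and 6, against 8.35 to 33.2 CPM in set A. The counts of replicates 4 and 6 were mostly of Ins2 and Ins1, and replicate 5 was low in both. The endothelial list, 10 of 10, summed to 8.76 to 39.3 CPM in set B and 5.49 to 19.3 in set A. The myeloid list, 9 of 10 with Itgam at 0, summed to 7.53 to 24.2 CPM in set B and 4.29 to 5.97 in set A, and its 252 counts in set B were close to the 249.5 expected from background with Itgam included. The lymphoid list, 9 of 10 with Ms4a1 at 0, summed to 0.73 to 4.19 CPM in set B and 0.19 to 0.85 in set A. The fibroblast and stellate list, 10 of 10, summed to 17.7 to 38.2 CPM in set B and 9.08 to 94.9 in set A. The ductal list, 10 of 10, summed to 69.5 to 190 CPM in set B and 106 to 141 in set A. The erythroid list, 5 of 6 with Alas2 at 0, summed to 0.31 to 14.5 CPM in set B and 0 to 0.38 in set A. In set B, background was expected to give 320 of 454 endothelial, 43.5 of 52 lymphoid and 21.9 of 105 erythroid counts. It was expected to give 135 of 602 fibroblast and stellate, 317 of 2246 ductal and 73.5 of 13870 endocrine counts. Of the exon bases of Iapp, Neurod1, Itgam, Ms4a1 and Alas2, 99.1 to 100% are shared with other gene spans, and their 0 counts do not show absence. The expected background of the lists still includes these genes, with 27.3 counts for Itgam, 8.09 for Ms4a1 and 11.4 for Alas2 in set B. The part of other cell types, of ribosomal RNA content and of background in the set difference of the mitosis genes was not tested, and the sets cannot be told apart from whatever the number in the library names stands for.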

How the data were processed

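Per the labels' protocols, RNA of 300 sorted cells per library was amplified by a modified Smart-seq2 protocol. Per the submitters' processing notes, Trim Galore 0.6.4, FastQC, STAR 2.7.9a, SAMtools and featureCounts were used with build mm10; which annotation release was counted, whether strand was used and how multi-mapped reads were treated are not given in the sources used here. The deposited files hold unnormalized whole-number counts for each gene symbol, with another deposited column for interval length in bp. For all 36 genes that interval was 1 and equalled the gene span, so counts include introns, and reads in overlapping genes may be lost.

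The 36 genes and the other lists were chosen with earlier results of these data known. Expected background was the gene span times the counts per Mb of the same library over 1489 protein-coding receptor genes (12.99 Mb, 7552 counts). TPM used exon lengths of GENCODE vM21, matched for 55040 of 55367 genes. Genes were kept by edgeR's filterByExpr and tested with edgeR 4.0.16 (TMM, quasi-likelihood test, Benjamini-Hochberg adjustment over all genes, threshold 0.05, set B over set A), and with DESeq2 1.42.0 as an alternative. The edgeR test was tested on simulated data with known changes. Those data held no background differences between libraries and no PCR copies, so that check does not cover these features. Both tools were given counts with background left in. SE is the absolute log2 difference divided by the square root of F. Intervals are exact 95% intervals for counts and cover counting error only. Software was matplotlib 3.10.9, scipy 1.17.1, pandas 2.3.3, numpy 2.4.6, Python 3.11.15 and R 4.3.3. No 2 libraries agreed within sampling noise, and each was counted as a sample.

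Values in every library were due for genes with an adjusted p under 0.05, for the 4 largest and 2 smallest differences of each class and for the 3 highest in mean TPM of each class; all 36 are given. Of each other cell cycle list the 2 genes with the highest mean TPM are named, and any further name was picked with its values in view. Promoter sequences come from RefSeq, GRCm38.p6, and motif letters were searched on both strands. Alternatives covered the tool, the normalization, the filter, the genes in the library size, the background genes, the multiple of background, the pseudocount, the length, the denominator and the omission of each replicate.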

Additional observations from a re-analysis of the deposited data

Results flagged for a closer look

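Over 39 values examined for a library far from the other 5, 3 stood apart by the ratio of the end gap to the whole range (Dixon's 95% critical value for 6 libraries), where chance alone flags about 1 in 20 groups. Mcm3, a helicase subunit gene, was at 2.09 normalized CPM in replicate 5 of set B, from 13 counts, while its expected background there was 5.67 counts. Ube2c, the ubiquitin-conjugating enzyme gene of the anaphase-promoting complex, was at 7.30 normalized CPM in replicate 6 of set B, from 50 counts, against 14 and 15 counts in the other libraries of set B. Background over receptor genes was 327 counts per Mb in replicate 5, against 26.5 to 109 in the others. The same replicate had counts in 25240 genes, against 17232 to 21659 in the others, and a TMM factor of 1.33, against 0.92 to 0.97. The part of this background in the values of replicate 5 was not tested beyond the subtraction and the omission given above.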

How the results depend on the processing

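Fitted directions of the 21 tested genes held under every alternative run except for Tyms, at 0.26 without replicate 5 (range -0.53 to 0.26 over omissions), and Ncapg2, at -0.083 without the filter on low counts. Genes of the list called higher numbered 1, against 5 by DESeq2, 6 without the filter and 0 to 12 over omissions of 1 replicate; for all genes called higher the counts were 1, 556, 790 and 0 to 1656, and for all genes called lower 0, 233, 203 and 0 to 561. DESeq2's size factors or leaving out ribosomal RNA or enzyme genes left 1 gene called higher. Mitosis genes over background in all libraries numbered 0 at 3 times, 3 at 2 times, and 0 to 6 over omissions, the 6 without replicate 5. The mitosis less S-phase level was -0.03, and -0.29 over genes averaging at least 1 TPM. The background-subtracted mitosis ratio of 6.20 was 4.26 over all counts, 4.38 over counts outside ribosomal RNA and enzymes, 3.89 over TMM sizes, 9.67 without the member with the most counts, Ncapg2, and 5.08 to 7.36 over omissions; the S-phase ratio of 2.54 was 1.74, 1.75 and 1.51 over the same denominators. Chosen after the data were seen, other counts of genes with all set B libraries above set A after background subtraction were, for 12 mitosis genes, 20 without replicate 5 and 19 with no subtraction, and for 2 S-phase genes, 4 without replicate 5, 1 with keratin-associated protein and beta-defensin genes as background, 7 over counts outside ribosomal RNA and 4 over all counts. Over counts outside ribosomal RNA and over all counts, the median of all 8723 tested genes was itself higher in set B, by 0.62 and 0.13 log2 units. No share over all genes is given for those scales or for the other background genes, so these S-phase counts are not read as a result. Also chosen after the data were seen, members over 3 times background in all set B libraries, 4 in each class, were 20 mitosis and 8 S-phase genes without replicate 5. The cause of these shifts was not tested. Where 2 libraries of a set remain, the fit is on 5. With medians of under 1 TPM, counting error limits single genes. No paired analysis was possible because the labels number 6 replicates within 1 group.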

Other observations

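Some genes that hold or release the cell cycle before S phase had a mean TPM above the 1.70 of Pcna, the highest of the 36 genes. Cdkn1a, the inhibitor p21, stood at 8.34 ± 1.55 TPM in set B and 14.2 ± 1.24 TPM in set A (SD, n = 3 each), with 132, 59 and 127 counts in set B, against 223, 200 and 206 in set A. Its sets did not overlap, and its fitted difference of -1.14 log2 units did not pass (edgeR adjusted p = 0.090). Rb1, the retinoblastoma gene, lay below Pcna, with a mean of 1.11 TPM over 6 libraries. It stood at 1.61 ± 1.13 TPM in set B and 0.61 ± 0.18 TPM in set A (SD, n = 3 each). Background was expected to give 69.4 of its 90 counts in set B and 13.2 of its 45 in set A. Other gene spans cover 59.7% of the exon bases of Rb1. Of the 10 genes in the list of CDK inhibitors and pocket proteins, 0 were called by edgeR, and 1 of the 4 tested was lower at an unadjusted p under 0.05, while DESeq2 called 1 lower, Cdkn1a.

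Among G1 cyclins and kinases, Ccnd2, which encodes cyclin D2, stood at 5.07 ± 0.48 TPM in set B and 3.31 ± 0.27 TPM in set A, and its kinase partner gene Cdk4 at 3.0 ± 0.14 TPM in set B and 3.37 ± 0.08 TPM in set A (SD, n = 3 each). The 10 genes of this list had 524, 367 and 470 counts in set B, against 454, 379 and 363 in set A, and 0 were called by edgeR or DESeq2 or had an unadjusted p under 0.05 in edgeR. In the list of E2F, DREAM and mitotic transcription factors, the MuvB genes Lin37 and Lin52 were highest, Lin37 at 3.69 ± 1.57 TPM in set B and 7.44 ± 1.67 in set A, and Lin52 at 3.28 ± 0.71 TPM in set B and 2.29 ± 0.57 in set A (SD, n = 3 each). Of this list 0 genes were called by edgeR or DESeq2, with 1 higher and 1 lower at an unadjusted p under 0.05, and edgeR called 1 lower without the filter on low counts.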
